A study of Rattus norvegicus with 16 samples.

Results

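The conjugating enzymes of rat liver are described here in sepsis under isoflurane and under propofol anesthesia. They are the 56 genes, of the 17055 gene symbols counted, whose symbols name a UDP-glucuronosyltransferase (UGT, 18 genes), a soluble or microsomal glutathione S-transferase (GST, 24 genes) or a sulfotransferase (SULT, 14 genes). They were taken by symbol. Polyadenylated RNA of liver was sequenced in 16 libraries, each a pool of 3 of the 48 rats, with 4 libraries and 12 rats in each of 4 groups. All rats were male Sprague-Dawley rats of 10 weeks with a celiotomy, and liver was taken 8 h later. Sepsis was made by cecal ligation and puncture, in which the cecum is tied off and pierced so that gut bacteria leak into the abdomen, and controls had the sham operation. Isoflurane-Sepsis (libraries 1 to 4) and isoflurane control (libraries 5 to 8) rats were induced and maintained with inhaled isoflurane. Propofol-Sepsis (libraries 9 to 12) and propofol control (libraries 13 to 16) rats received ketamine with xylazine for induction and then intravenous propofol. The anesthetic, the drugs of induction and the sequencing submission changed together, and their parts cannot be told apart. All rats had an anesthetic and surgery, so no group shows the liver of an untreated rat.

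These families carry out phase II metabolism, in which a polar group is joined to a drug, hormone or waste product so that it can leave in bile or urine. UGT enzymes of the endoplasmic reticulum transfer glucuronic acid from UDP-glucuronate, GST enzymes transfer glutathione to electrophiles, and SULT enzymes of the cytosol transfer sulfate from PAPS. Hepatocytes hold much of the body's capacity for all of these reactions, and hepatic drug-metabolizing genes are known to fall in inflammation.

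The promoters of 5 members are shown first, members whose values are given in the text. Each window runs from 250 bases before to 50 bases after the start of the gene and comes from RefSeq for rat build GRCr8, which is not the build of the counts. Sult2a6 had the largest fall under isoflurane, Sult1b1 a large fall in both anesthetics, Ugt2a3 a fall with a large difference between control livers, Gstp1 a fall with a higher level under propofol, and Gsto1 rose in both. Capitals mark, on either strand, the letters GTTAAT (a short element of the HNF1 factors, searched after the data had been seen) in Sult2a6 and Ugt2a3, and TGACNNNGC (the core of the antioxidant response element) and GCGTG (the core of the aryl hydrocarbon receptor element) in Gstp1. Sult1b1 and Gsto1 held none of these letters in this window.
Sult2a6 (GRCr8 chr1:84097759-84098058, minus strand): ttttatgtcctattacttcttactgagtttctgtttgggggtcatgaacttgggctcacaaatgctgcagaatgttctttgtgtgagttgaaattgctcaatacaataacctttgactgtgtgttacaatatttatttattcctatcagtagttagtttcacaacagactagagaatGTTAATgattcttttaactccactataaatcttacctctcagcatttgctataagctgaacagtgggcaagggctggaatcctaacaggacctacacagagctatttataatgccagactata
Sult1b1 (GRCr8 chr14:20771667-20771966, plus strand): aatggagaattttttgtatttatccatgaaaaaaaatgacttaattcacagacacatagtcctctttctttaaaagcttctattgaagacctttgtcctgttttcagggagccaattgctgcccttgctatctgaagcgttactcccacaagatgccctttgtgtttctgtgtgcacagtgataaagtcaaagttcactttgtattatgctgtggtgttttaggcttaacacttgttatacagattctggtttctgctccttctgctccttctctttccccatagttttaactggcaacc
Ugt2a3 (GRCr8 chr14:20851720-20852019, plus strand): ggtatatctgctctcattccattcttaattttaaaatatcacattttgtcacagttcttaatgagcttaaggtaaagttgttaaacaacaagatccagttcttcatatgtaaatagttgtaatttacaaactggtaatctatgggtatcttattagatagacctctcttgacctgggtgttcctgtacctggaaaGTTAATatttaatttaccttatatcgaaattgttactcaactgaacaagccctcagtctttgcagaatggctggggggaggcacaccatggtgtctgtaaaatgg
Gstp1 (GRCr8 chr1:210769656-210769955, minus strand): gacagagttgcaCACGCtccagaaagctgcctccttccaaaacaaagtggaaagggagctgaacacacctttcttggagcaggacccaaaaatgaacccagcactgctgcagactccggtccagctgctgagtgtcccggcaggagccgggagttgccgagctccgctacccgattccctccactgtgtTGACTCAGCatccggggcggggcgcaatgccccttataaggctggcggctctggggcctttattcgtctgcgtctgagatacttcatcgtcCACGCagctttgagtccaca
Gsto1 (GRCr8 chr1:256662281-256662580, plus strand): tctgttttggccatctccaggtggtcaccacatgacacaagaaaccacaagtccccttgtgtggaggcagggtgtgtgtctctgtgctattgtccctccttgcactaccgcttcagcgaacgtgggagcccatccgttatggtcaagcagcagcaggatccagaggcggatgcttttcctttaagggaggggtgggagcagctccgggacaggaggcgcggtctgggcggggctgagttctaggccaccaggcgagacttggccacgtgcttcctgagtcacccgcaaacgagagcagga

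A window was found for 48 of the 56 members, in 50 windows. GTTAAT stood in 10 of these 50 windows, against 7.45% of all 33469 windows of the same length, and belonged to 9 members: Gsta3, Sult2a2, Sult2a6, Ugt1a1, Ugt1a2, Ugt1a3, Ugt1a6, Ugt2a3 and Ugt2b10. The full HNF1 element, searched as an exact palindrome, stood in none of the 50 windows and in 0.00299% of all windows. TGACNNNGC was found in 6 of the 50 windows (Gsta2, Gsta3, Gstm5, Gstm7, Gstp1 and Gstz1), against 12.1% of all windows. GCGTG was found in 13 of the 50, against 29.7%. Neither share lay above that of all windows. A match of these letters is a description of the sequence and not a site of binding, and the letters can occur by chance.

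Values are CPM, read counts divided by the library size after TMM scaling, which compare 1 gene across libraries. They are not divided by gene length, so they do not rank genes by abundance. Of the 56 members, 42 had enough reads to be tested in at least 1 comparison and 14 did not. No read was counted for Gstm5, Sult1e1, Sult6b1, Ugt1a7c, Ugt1a8 and Ugt1a9, and under 10 reads in all were counted for Gstm6l and Gstt4. The other 6 that were not tested were Sult1d1, Sult2a2, Sult4a1, Sult5a1, Ugt1a3 and Ugt8. The share of gene reads that fell on the members was 0.345% to 0.797%. Libraries held 14199422 to 49937173 such reads. All 10 hepatocyte markers were present in these libraries, with summed CPM of 135740 to 159160 in Isoflurane-Sepsis, 156680 to 167600 in isoflurane control, 111590 to 126430 in Propofol-Sepsis and 117710 to 130620 in propofol control.

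A pair of libraries stood apart in ways that touch the members. Library 4 of Isoflurane-Sepsis was the lowest of its group for 29 of the 40 members tested there, with a median of -1.09 on the log2 scale against the control mean, where libraries 1, 2 and 3 had -0.63, -0.34 and -0.52. Library 4 also had the highest summed CPM of neutrophil and monocyte markers (466), while its hepatocyte sum (159160) was the highest of its group. Its sums of Kupffer cell (353), stellate cell (598) and lymphocyte (20.8) markers were the highest of all libraries too. Those of endothelial (112) and pericentral hepatocyte (755) markers were the lowest. So was that of 6 transporters of conjugates and bile acids (165), a list that includes Slc10a1, which is not an exporter of conjugates. Library 10 of Propofol-Sepsis carried brain markers at a summed CPM of 355, against 3.69 to 23.5 in the other 15 libraries. Sult4a1, a sulfotransferase of neurons, stood at 6.11 CPM in library 10 and at no more than 0.621 elsewhere, and Ugt8, which makes the galactosylceramide of myelin, at 3.13 CPM and no more than 0.226 elsewhere. Both were left untested by the filter on low counts, and neither is read as a response of the liver.

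The 3 families took fewer reads in sepsis under both anesthetics. The summed CPM of the SULT genes was 327 ± 134 (SD, n = 4) in Isoflurane-Sepsis and 1021 ± 49.9 in isoflurane control, which is 67.9% lower. In Propofol-Sepsis it was 419.5 ± 72.5, against 776 ± 61.2 in propofol control, 45.9% lower. The UGT sum was 2305 ± 413 against 3423 ± 268 under isoflurane, 32.7% lower, and 1941 ± 140.4 against 2835 ± 284 under propofol, 31.6% lower. The GST sum was 2534 ± 466 against 3370.3 ± 32.2 under isoflurane, 24.8% lower, and 2533 ± 153 against 3363 ± 226 under propofol, 24.7% lower. Such sums lean on the members with the most reads. Mgst1, which was not called, had means of 939 CPM in Isoflurane-Sepsis and 1337 CPM in isoflurane control. In every family and anesthetic the 4 sepsis libraries lay below the 4 control libraries, as the plot of summed CPM by library shows. Fewer cells of a type and less RNA per cell cannot be told apart in bulk tissue.

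**Figure D1:**
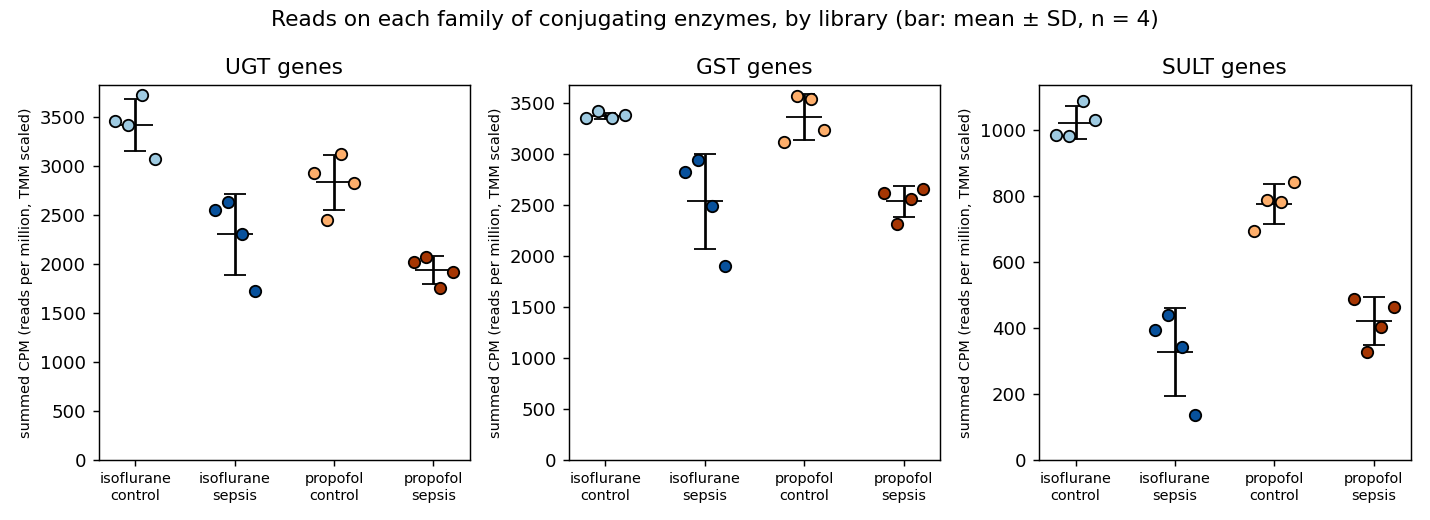
Summed CPM of the UGT, GST and SULT genes (vertical axes, CPM after TMM scaling, from 0) in each of the 16 libraries by group (horizontal axis); points are libraries and bars the mean ± SD of 4. The sepsis libraries lie below the control libraries in each panel, and the SULT sum in library 4 is the lowest point of its panel.

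Under isoflurane, 31 of the 40 members tested were lower in sepsis, 2 were higher and 7 did not pass, at an adjusted p below 0.05 in the quasi-likelihood test of edgeR. Of all 10361 genes tested, 24.4% were called lower and 25.7% higher. The median log2 fold change was -0.62 over the members and 0.01 over all genes. In 30 members every sepsis library lay below every control library, which 24.4% of all genes showed. Under propofol, 28 of 38 members were lower, 1 was higher and 9 did not pass, where 21.7% of all 10348 genes were called lower and 20.4% higher. The median was -0.58 over the members and -0.0016 over all genes, and 24 members lay wholly below their controls, against 21.1% of all genes. Without library 4 the count of members lower under isoflurane was 30, and without library 10 that under propofol was 29. A member such as Ugt1a2 or Gstm6, tested under isoflurane alone, or Ugt2b7, tested under propofol alone, entered through the group where it was high, so these counts hold only for the members that passed the filter.

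Both sepsis comparisons are made on different rats and share no library. Of 37 members tested in both, 24 were lower in both, or 64.9%, against 15.1% of all 10182 genes tested in both, and 1 was higher in both. Another 5 were lower under isoflurane alone and 3 under propofol alone, and none was called in opposite directions. Of the 10 neutrophil and monocyte markers, 1 was at 0 in all libraries. In each anesthetic 7 of the 9 tested were called higher, where 25.7% and 20.4% of all genes were. Cxcr2 and Mmp8 were called in neither. The summed CPM of the markers was 171 to 466 in Isoflurane-Sepsis and 48.8 to 56.5 in its controls. It was 111 to 175 in Propofol-Sepsis and 42.4 to 62.9 in its controls. Cd14 made up the largest part of the sum in sepsis, at a mean of 230 CPM under isoflurane and 87.9 CPM under propofol. Of the 10 hepatocyte markers, 3 were called lower and 1 higher in each anesthetic, where 24.4% and 21.7% of all genes were called lower. Their median log2 fold changes were -0.11 under isoflurane and -0.14 under propofol. The part of either list of markers in the falls was not tested.

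**Figure D2:**
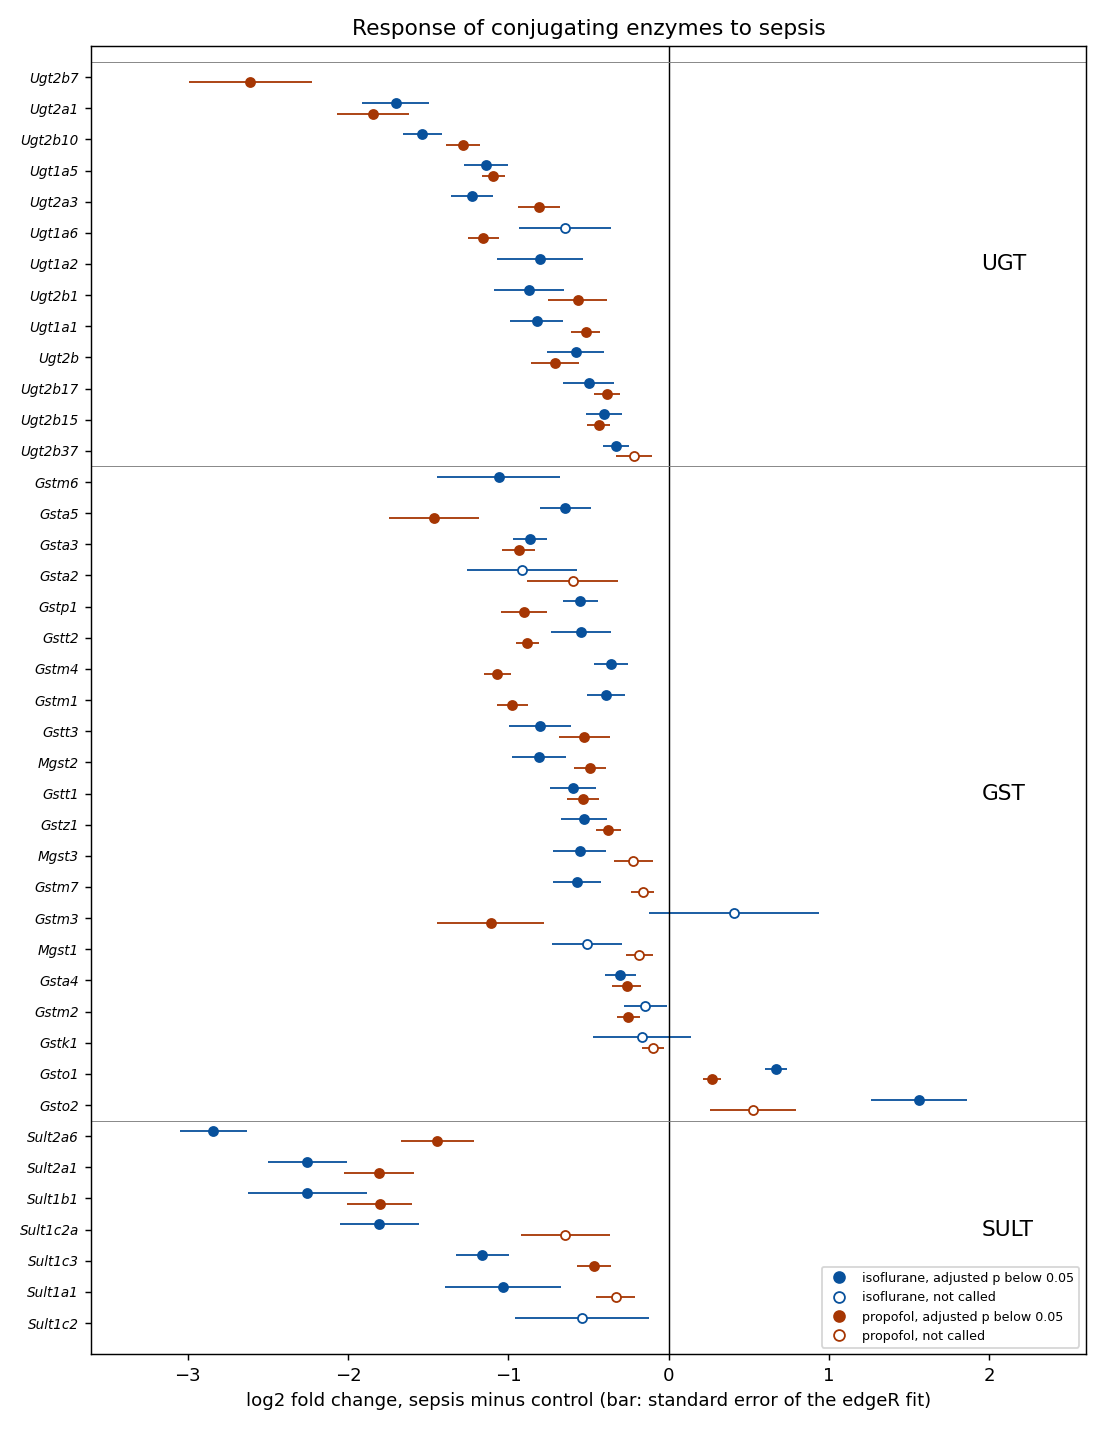
Log2 fold change of sepsis against control (horizontal axis) for each tested member (vertical axis, by family) under isoflurane (blue) and propofol (brown); bars are standard errors of the edgeR fit and open points did not reach an adjusted p below 0.05. Nearly all points lie left of 0, Sult2a6 under isoflurane farthest at -2.84, and Gsto1 and Gsto2 lie right of 0 in both anesthetics.

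The sulfotransferases had the lowest median of the 3 families in both anesthetics. Under isoflurane 6 of the 7 tested were lower and 1 was not called, with a median of -1.81 on the log2 scale, and under propofol 4 of 6 were lower and 2 were not called, with a median of -1.04. Sult2a6, of the hydroxysteroid and bile acid sulfotransferases, read 4.44, 6.19, 4.09 and 2.96 CPM in Isoflurane-Sepsis and 25.8, 29.0, 33.9 and 37.8 CPM in isoflurane control. The groups lay far apart, and the fall was 7.17-fold (log2 -2.84 ± 0.21 SE, adjusted p 4.11e-05, edgeR). Under propofol it read 4.80, 2.39, 3.53 and 3.01 CPM in sepsis and 10.1, 6.70, 8.57 and 11.5 CPM in control. These groups did not overlap either, and the fall was 2.72-fold (log2 -1.44 ± 0.23, adjusted p 9.27e-04). The sepsis means were 4.42 ± 1.34 CPM under isoflurane and 3.43 ± 1.02 CPM under propofol (SD, n = 4), and the control means 31.6 ± 5.28 and 9.22 ± 2.07 CPM.

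Sult2a1, the dehydroepiandrosterone sulfotransferase, read 23.6, 9.79, 22.1 and 21.9 CPM in Isoflurane-Sepsis and 91.2, 93.0, 78.1 and 109 CPM in isoflurane control. All sepsis libraries were low, and library 2 was the lowest (4.77-fold lower, log2 -2.26 ± 0.25, adjusted p 2.09e-04). Under propofol it read 33.3, 20.2, 23.4 and 29.3 CPM against 93.0, 83.8, 64.5 and 129 CPM, again without overlap. That fall was 3.50-fold (log2 -1.81 ± 0.22, adjusted p 2.43e-04). Sult1b1, which sulfates thyroid hormones and small phenols, read 119, 132, 106 and 31.1 CPM in Isoflurane-Sepsis against 465, 443, 492 and 454 CPM in control (log2 -2.25 ± 0.37, adjusted p 0.00135). Library 4 lay well below the other 3, and these 3 were still far under every control. Under propofol Sult1b1 read 97.5, 47.5, 79.7 and 94.4 CPM against 234, 283, 309 and 283 CPM (log2 -1.80 ± 0.20, adjusted p 1.62e-04).

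The other SULT1 genes fell less. Sult1c3 went from 63.3 ± 4.60 CPM in isoflurane control to 28.2 ± 6.87 CPM in Isoflurane-Sepsis (SD, n = 4; log2 -1.16 ± 0.16 SE, adjusted p 6.44e-04) and from 106 ± 11.6 CPM to 77.2 ± 8.86 CPM under propofol (log2 -0.46 ± 0.10, adjusted p 0.00607). Sult1c2a went from 11.2 ± 1.63 to 3.19 ± 1.26 CPM under isoflurane (log2 -1.81 ± 0.25, adjusted p 5.58e-04), and under propofol, at 3.35 ± 1.07 CPM in control and 2.17 ± 0.636 CPM in sepsis, it did not pass (adjusted p 0.0860). Sult1a1, the main phenol sulfotransferase, read 209, 255, 174 and 57.9 CPM in Isoflurane-Sepsis and 333, 339.5, 409.9 and 343 CPM in its control. The groups did not overlap (log2 -1.03 ± 0.36, adjusted p 0.0394), but the test was lost when any of libraries 3, 5, 6, 7 and 8 was left out, with adjusted p up to 0.0923. Under propofol Sult1a1 overlapped its controls and did not pass (log2 -0.33 ± 0.12, adjusted p 0.0533). Sult1c2 was tested under isoflurane alone and did not pass (adjusted p 0.307).

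**Figure D3:**
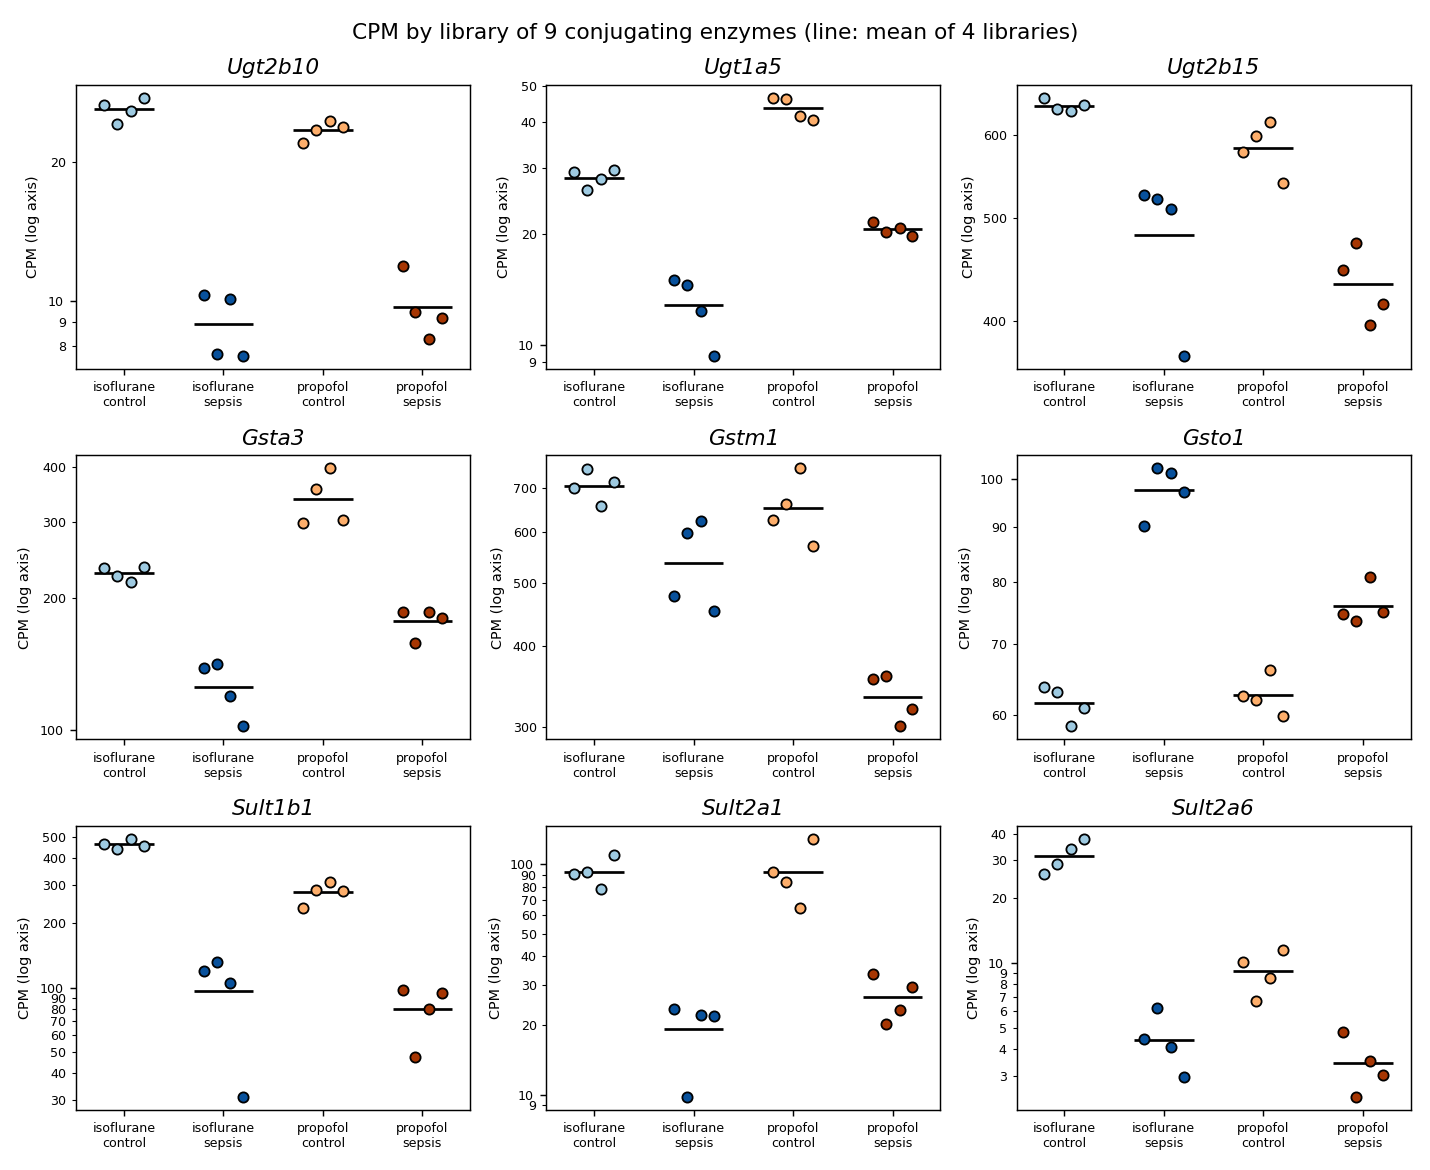
CPM (vertical axes, log scale) in each of the 16 libraries by group (horizontal axis) for 9 members; points are libraries and lines the mean of 4. Sult2a6 and Sult1b1 lie far lower in sepsis, Gsto1 is the panel in which sepsis lies above control, and the control level of Sult2a6 is 31.6 CPM under isoflurane and 9.22 CPM under propofol.

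The glucuronosyltransferases were lower across both UGT1 and UGT2. In each anesthetic 11 of the 12 tested UGT members were lower, none was higher and 1 did not pass, with medians of -0.81 under isoflurane and -0.76 under propofol. The largest fall of a UGT called in both anesthetics was that of Ugt2a1, known from olfactory tissue and low in these livers, from 2.50 ± 0.477 to 0.766 ± 0.130 CPM under isoflurane (log2 -1.70 ± 0.21, adjusted p 3.45e-04) and from 2.52 ± 0.421 to 0.698 ± 0.154 CPM under propofol (log2 -1.84 ± 0.22, adjusted p 2.41e-04). Ugt2b10 read 10.3, 7.67, 10.1 and 7.61 CPM in Isoflurane-Sepsis and 26.6, 24.2, 25.8 and 27.6 CPM in control, a 2.90-fold fall with narrow groups (log2 -1.54 ± 0.12, adjusted p 6.05e-05). Under propofol it read 11.9, 9.48, 8.28 and 9.21 CPM against 22.01, 23.5, 24.6 and 23.8 CPM, a 2.43-fold fall (log2 -1.28 ± 0.11, adjusted p 4.56e-05). The control levels of Ugt2b10 in the anesthetics, 26.03 ± 1.45 and 23.5 ± 1.09 CPM, were not called different (adjusted p 0.0602).

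Ugt2a3 went from 64.9 ± 6.16 to 27.7 ± 4.65 CPM under isoflurane (log2 -1.22 ± 0.13, adjusted p 1.93e-04) and from 33.2 ± 2.54 to 19.1 ± 3.81 CPM under propofol (log2 -0.81 ± 0.13, adjusted p 0.00111). The UGT2B genes with the most reads, whose enzymes conjugate steroids and many drugs, fell by less. Ugt2b went from 1361 ± 266 to 910.1 ± 182 CPM under isoflurane (log2 -0.58 ± 0.18, adjusted p 0.0234) with overlap of the groups, and from 1171 ± 262 to 719 ± 36.7 CPM under propofol (log2 -0.71 ± 0.15, adjusted p 0.00406). Ugt2b15 read 527, 522, 510.2 and 370.3 CPM in Isoflurane-Sepsis and 651, 635, 632 and 640.3 CPM in control. Library 4 lay apart from the other 3, and the fall was 1.32-fold (log2 -0.40 ± 0.11, adjusted p 0.0164). Under propofol Ugt2b15 went from 584 ± 33.2 to 433 ± 34.3 CPM (log2 -0.44 ± 0.07, adjusted p 0.00121), and Ugt2b17 fell by 0.50 and 0.38 on the log2 scale (adjusted p 0.0271 and 0.00417). Under isoflurane the call of Ugt2b was lost without any of libraries 3, 5, 6 and 7 (adjusted p up to 0.0697), and that of Ugt2b17 without any of libraries 5, 7 and 8 (adjusted p up to 0.0645).

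Members of the UGT1A cluster share their last exons and differ in the first. How reads on the shared part were counted is not stated, so the values of single UGT1A members are uncertain. Ugt1a1, which conjugates bilirubin, went from 203 ± 6.19 to 114 ± 28.04 CPM under isoflurane (log2 -0.82 ± 0.16, adjusted p 0.00339) and from 120.3 ± 16.7 to 84.3 ± 4.48 CPM under propofol (log2 -0.52 ± 0.09, adjusted p 0.00187). Ugt1a5 read 15.0, 14.6, 12.4 and 9.36 CPM in Isoflurane-Sepsis and 29.3, 26.3, 28.01 and 29.7 CPM in control. This 2.21-fold fall (log2 -1.14 ± 0.14, adjusted p 3.11e-04) stood beside a 2.13-fold fall under propofol, from 46.5, 46.0, 41.5 and 40.5 CPM to 21.5, 20.2, 20.7 and 19.8 CPM (log2 -1.09 ± 0.07, adjusted p 1.08e-05). Ugt1a6, which conjugates planar phenols, went from 29.1 ± 3.60 to 13.1 ± 0.891 CPM under propofol (log2 -1.16 ± 0.10, adjusted p 4.56e-05). Under isoflurane it read 9.55 ± 0.406 CPM in control and 6.07 ± 2.50 CPM in sepsis and did not pass (log2 -0.65 ± 0.29, adjusted p 0.0873), with library 4 at 2.42 CPM, and it passed when library 4 was left out. Ugt2b7 was tested under propofol alone, from 2.11 ± 0.940 to 0.327 ± 0.132 CPM (log2 -2.61 ± 0.38, adjusted p 6.36e-04).

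The glutathione S-transferases fell by less, and they held the members that rose. Under isoflurane 14 of 21 tested GST genes were lower, 2 were higher and 5 did not pass, and under propofol 13 of 20 were lower, 1 was higher and 6 did not pass. The medians were -0.55 and -0.51 on the log2 scale. In the alpha class, whose enzymes bind bilirubin and act on lipid peroxides and steroids, Gsta3 read 139, 141, 119 and 102 CPM in Isoflurane-Sepsis and 234, 225, 218 and 237 CPM in control (log2 -0.87 ± 0.11, adjusted p 3.44e-04). Under propofol it read 186, 158, 186 and 180.4 CPM against 297, 357, 397 and 303 CPM (log2 -0.94 ± 0.10, adjusted p 1.46e-04). The groups did not overlap in either anesthetic. Of the 4 alpha genes, 3 were lower in each anesthetic, and Gsta2, at 0.843 ± 0.470 CPM in Isoflurane-Sepsis and 1.59 ± 0.334 CPM in its control, missed the threshold (adjusted p 0.0502). The call of Gsta4 was weak in both: it was lost without any 1 of the isoflurane controls (adjusted p 0.0283 with all), and under propofol its groups overlapped (adjusted p 0.0433) and it was lost without any library but library 12, and with no filter on low counts.

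In the mu class 4 of 6 tested genes were lower under isoflurane and 4 of 5 under propofol, with medians of -0.37 and -0.97. Gstm1, a mu class enzyme with many reads here, read 477, 597, 623 and 453 CPM in Isoflurane-Sepsis and 701, 751, 657 and 716 CPM in control (log2 -0.39 ± 0.12, adjusted p 0.0238). Under propofol it read 356, 359, 301 and 319.8 CPM against 626, 663, 752 and 571 CPM (log2 -0.97 ± 0.09, adjusted p 8.87e-05). Gstm4 went from 29.3 ± 1.72 to 22.8 ± 2.87 CPM under isoflurane (log2 -0.36 ± 0.11, adjusted p 0.0199) and from 39.4 ± 3.78 to 18.9 ± 1.25 CPM under propofol (log2 -1.07 ± 0.08, adjusted p 3.79e-05). The isoflurane call of Gstm1 was lost without any of libraries 5, 6 and 8 (adjusted p up to 0.0625), and that of Gstm4 without library 8. Gstm6, at 0.782 ± 0.487 CPM in Isoflurane-Sepsis and 1.64 ± 0.265 CPM in control, overlapped between the groups (adjusted p 0.0446), and its call was lost without any library but library 3. Without library 8, Gstm7 (log2 -0.57 ± 0.15, adjusted p 0.0123) was the 1 mu class gene still called under isoflurane. Gstm2 did not pass under isoflurane (log2 -0.15 ± 0.14, adjusted p 0.395) and was lower under propofol (log2 -0.25 ± 0.07, adjusted p 0.0180), a call lost without library 11 (adjusted p 0.0536). Gstm3 varied widely in Isoflurane-Sepsis, at 5.04, 26.9, 47.4 and 14.3 CPM, around controls of 14.5 to 19.7 CPM, and no change was called (adjusted p 0.544). Under propofol it was lower with overlapping groups (log2 -1.11 ± 0.33, adjusted p 0.0237), a call lost without library 11, 12 or 14 and in 1 fit of all 16 libraries.

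All 3 tested theta class genes were lower in both anesthetics, and Gstt2 went from 26.3 ± 1.99 to 18.0 ± 4.81 CPM under isoflurane (log2 -0.55 ± 0.19, adjusted p 0.0362) and from 44.7 ± 3.94 to 24.4 ± 0.530 CPM under propofol (log2 -0.88 ± 0.07, adjusted p 4.05e-05). The isoflurane call of Gstt2 was lost without any of libraries 4, 5, 7 and 8. Under propofol the groups of Gstt3 overlapped (adjusted p 0.0242), and its call was lost without library 11, 12 or 13. Gstz1, the maleylacetoacetate isomerase of tyrosine breakdown, fell by 0.53 (adjusted p 0.0133) and 0.38 (adjusted p 0.00409) on the log2 scale. Gstp1, the pi class enzyme that is scarce in normal rat hepatocytes, fell by 0.55 (adjusted p 0.00321) and 0.90 (adjusted p 9.70e-04). Gstk1, the kappa class enzyme of mitochondria and peroxisomes, was not called in either (adjusted p 0.677 and 0.284). Of the microsomal enzymes, Mgst1 read 1323, 1131, 652 and 649 CPM in Isoflurane-Sepsis, against controls of 1310.3 to 1371 CPM, so that library 1 lay among the controls, library 2 below them and libraries 3 and 4 far lower. It did not pass there (log2 -0.51 ± 0.22, adjusted p 0.0774) nor under propofol (log2 -0.18 ± 0.09, adjusted p 0.112).

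The omega class was the exception. Gsto1, a glutathione-dependent reductase of dehydroascorbate and arsenic acids, read 90.2, 102, 101 and 97.1 CPM in Isoflurane-Sepsis and 63.8, 63.1, 58.6 and 60.9 CPM in control. Every sepsis library was higher than every control, by 1.59-fold (log2 0.67 ± 0.07, adjusted p 1.87e-04). Under propofol it read 74.7, 73.6, 80.9 and 75.0 CPM against 62.6, 62.0, 66.2 and 59.9 CPM, a rise of 1.21-fold (log2 0.27 ± 0.06, adjusted p 0.00434). Gsto2, which lies beside Gsto1 in the genome, read 2.89, 1.61, 1.40 and 2.42 CPM in Isoflurane-Sepsis and 0.987, 0.594, 0.465 and 0.750 CPM in control. This was a rise of 2.95-fold (log2 1.56 ± 0.30, adjusted p 0.00287) without overlap. Under propofol the groups overlapped, at 1.15 ± 0.271 and 0.785 ± 0.222 CPM, and Gsto2 did not pass (log2 0.53 ± 0.27, adjusted p 0.140).

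Whether the response to sepsis differed between the anesthetics was asked with an interaction term in a fit of all 16 libraries, with the isoflurane response minus the propofol response as its sign. It uses the same libraries as the comparisons within each anesthetic. Of 41 members tested, 1 was lower and 2 were higher, where 1.06% and 1.66% of all 10621 genes were. Sult2a6 fell more under isoflurane (log2 difference -1.40 ± 0.32, adjusted p 0.0376), Gsto1 rose more (0.39 ± 0.08, adjusted p 0.0298), and Gstm4 fell less (0.70 ± 0.13, adjusted p 0.0202). The call of Gstm4 held without each library in turn. That of Gsto1 was lost without any of libraries 3, 6, 7, 8, 9, 12, 13, 14 and 15 (adjusted p up to 0.0688), and that of Sult2a6 without any of these or library 11 (adjusted p up to 0.0791). Without library 1 or library 4, 5 members were called higher, Gstm1 among them in both. With libraries 4 and 10 both left out, 2 members were lower and 4 higher, the 3 named among them. For the other 38 members the test does not show a difference, nor that the responses were alike.

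The control livers of the anesthetics were compared with isoflurane minus propofol as the sign. Of 42 tested members, 10 (23.8%) were lower and 16 (38.1%) higher under isoflurane. Of all 10314 genes, 21.7% were lower and 21.6% higher, so the share of members called lower was near that of all genes. The median was 0.07 over the members. Scaling to library totals alone moved the median of all genes to -0.15 and the split to 14 lower and 14 higher, so the direction of small differences depends on the scaling. This comparison shares its control libraries with those of sepsis. Ugt1a2 read 8.84, 8.17, 6.64 and 8.71 CPM in isoflurane control and 0.579, 0.349, 0.809 and 0.240 CPM in propofol control (log2 4.02 ± 0.23, adjusted p 2.44e-06). It passed the low-count filter through isoflurane control, and the propofol side rests on 37 reads over 4 libraries. Ugt2b7 (log2 -2.66 ± 0.38, adjusted p 3.37e-04) passed it through propofol control, and its isoflurane side also rests on 37 reads over 4 libraries. Ugt1a6, of the same gene cluster as Ugt1a2, stood the other way from Ugt1a2, at 9.55 ± 0.406 and 29.1 ± 3.60 CPM (log2 -1.61 ± 0.09, adjusted p 2.35e-06). Gstp1 was also lower under isoflurane, at 8.47 ± 0.960 against 27.1 ± 4.34 CPM (log2 -1.69 ± 0.12, adjusted p 7.69e-06). Ugt2a3 (log2 0.96 ± 0.08, adjusted p 1.44e-05) and Gstk1 (log2 0.78 ± 0.07, adjusted p 1.64e-05) were higher. Of the SULT genes 5 of 8 were higher and 1 was lower. In 1 fit of all 16 libraries Sult1a1, Sult1b1 and Sult1c2 lost their calls, which left Sult1c2a and Sult2a6 higher, and over all members 9 were lower and 11 higher. The share of all genes called in that fit is not given. Sult2a6 stood at 31.6 ± 5.28 CPM under isoflurane and 9.22 ± 2.07 CPM under propofol (log2 1.78 ± 0.16, adjusted p 2.14e-05). The hepatocyte markers were also higher in isoflurane control, 9 of 10 by the same test, and their part was not tested.

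**Figure D4:**
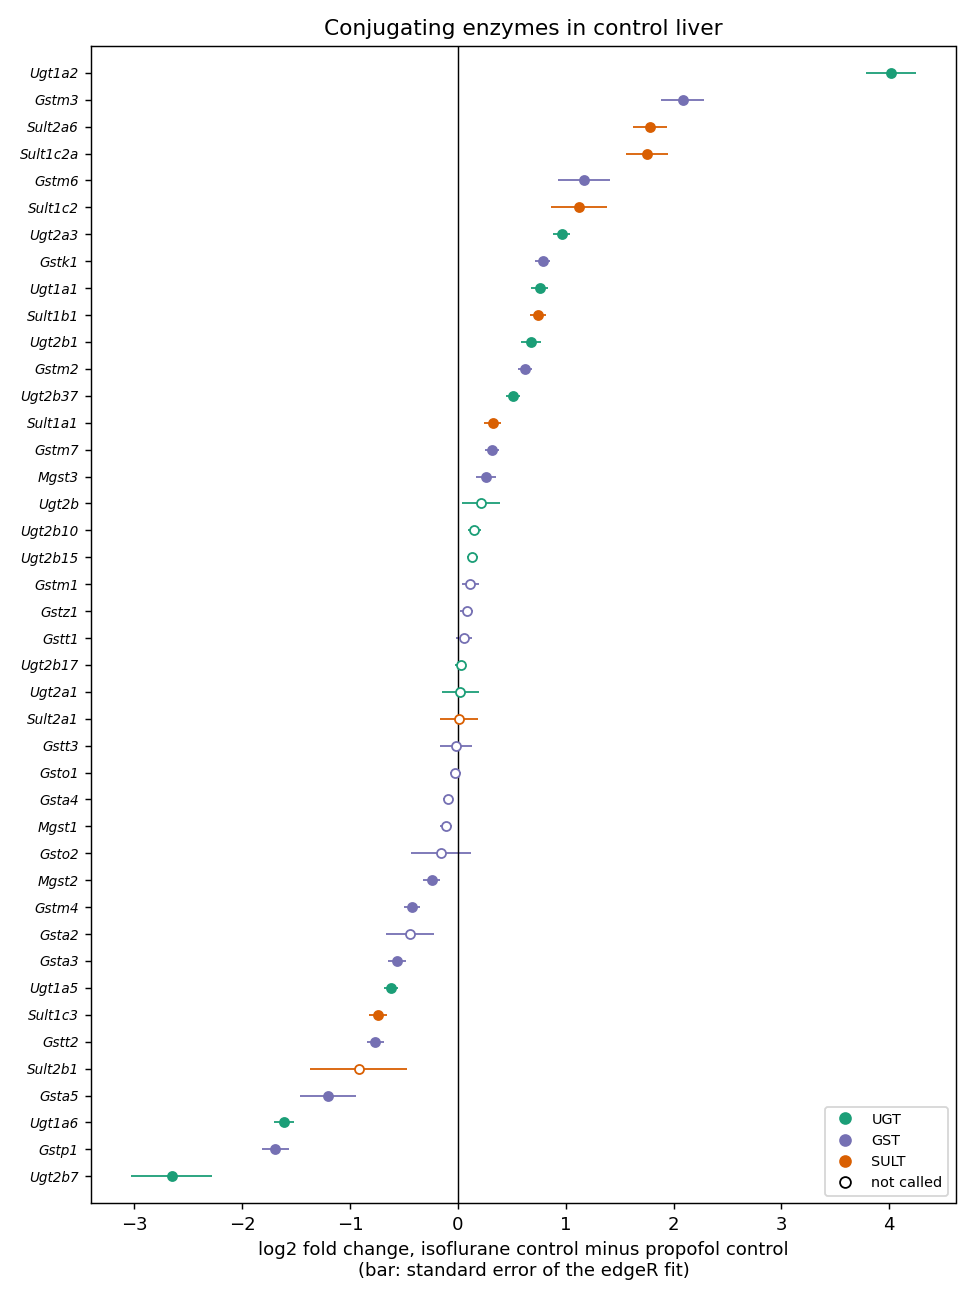
Log2 fold change of isoflurane control against propofol control (horizontal axis) for each of the 42 tested members (vertical axis), coloured by family; bars are standard errors of the edgeR fit and open points were not called. Ugt1a2 lies farthest right, and Ugt2b7, Gstp1 and Ugt1a6 farthest left. Ugt1a2 and Ugt2b7 each had 37 reads in the group where they were low, and passed the filter through the other group.

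Genes that supply or use the cosubstrates, that regulate these families or that act beside them are counted here against the shares of all genes, 24.4% lower and 25.7% higher under isoflurane and 21.7% lower and 20.4% higher under propofol. Of 5 genes that make or handle UDP-glucuronate, 2 were higher and 1 lower under isoflurane, and 2 were higher under propofol. Ugp2, which makes UDP-glucose, rose by 1.25 (± 0.34, adjusted p 0.0136) and 0.83 (± 0.20, adjusted p 0.00902) on the log2 scale, and Ugdh, which oxidizes it to UDP-glucuronate, rose under isoflurane (0.86 ± 0.13, adjusted p 7.73e-04) and did not pass under propofol (0.19 ± 0.09, adjusted p 0.107). For Ugdh the difference between the responses passed (interaction 0.66 ± 0.17, adjusted p 0.0466). Of 8 genes of PAPS synthesis and sulfate handling, 4 were lower and 2 higher under isoflurane, and 4 lower and 3 higher under propofol. Papss2, the main PAPS synthase of liver, rose by 1.35 ± 0.14 (adjusted p 1.77e-04) and 0.92 ± 0.09 (adjusted p 1.03e-04). Slc26a1, a sulfate transporter, fell by 2.36 (adjusted p 5.73e-04) and 1.77 (adjusted p 1.20e-04), and Bpnt1, which clears the spent cosubstrate, fell by 1.08 (adjusted p 0.00371) and 0.64 (adjusted p 0.00884).

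Of 9 genes of glutathione synthesis and handling, 2 were lower and 2 higher under isoflurane, and 5 were lower and 1 higher under propofol. Gclc, the catalytic subunit of the rate-limiting enzyme, stood at 44.3 ± 12.2 and 45.6 ± 4.59 CPM in Isoflurane-Sepsis and its control (log2 -0.03 ± 0.19, adjusted p 0.896), and at 47.98 ± 5.87 and 121.9 ± 28.6 CPM in Propofol-Sepsis and its control (log2 -1.35 ± 0.15, adjusted p 1.86e-04). The difference between these responses passed (interaction 1.31 ± 0.26, adjusted p 0.0244), a call not rechecked with libraries left out. The propofol controls were the group that stood apart, as for Gclm, the modifier subunit, at 63.5 ± 17.9 CPM there and 28.04 to 31.4 CPM on average in the other 3 groups.

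Of 13 transcription regulators of these genes, 5 were lower and 4 higher under isoflurane, and 8 lower and 1 higher under propofol. Nr1i3, the constitutive androstane receptor, went from 4.14 ± 1.32 to 0.382 ± 0.358 CPM under isoflurane (log2 -3.40 ± 0.51, adjusted p 8.58e-04) and from 12.7 ± 4.25 to 0.394 ± 0.427 CPM under propofol (log2 -5.10 ± 0.49, adjusted p 8.87e-05). It passed the low-count filter through the controls. Its sepsis libraries read 0.0604 to 0.880 CPM under isoflurane and 0.0534 to 1.02 CPM under propofol, so the size of these falls is uncertain. Hnf4a, a master regulator of hepatocyte genes, fell by 1.06 (adjusted p 1.55e-04) and 0.73 (adjusted p 5.63e-05), and Rxra, the common partner of nuclear receptors, by 1.19 (adjusted p 4.09e-04) and 0.81 (adjusted p 9.42e-05). Cebpb, a factor of the acute phase response, rose by 1.501 (adjusted p 0.00551) and 0.59 (adjusted p 0.0288). Cebpa (log2 1.17, adjusted p 0.00501), Foxa2 (1.18, adjusted p 0.00855) and Arnt (0.35, adjusted p 0.0107) rose under isoflurane and did not pass under propofol. The difference between the responses passed for Cebpa (interaction 1.22 ± 0.28, adjusted p 0.0366). It did not pass for Foxa2 (interaction adjusted p 0.094) or Arnt (interaction adjusted p 0.45). Among 9 tested genes of other conjugating enzymes, 5 were lower and none higher under isoflurane, and 6 were lower and 3 higher under propofol. Baat, which joins bile acids to glycine and taurine, fell by 2.46 (adjusted p 6.40e-04) and 2.38 (adjusted p 4.88e-05). Nnmt, which methylates nicotinamide, rose under propofol (1.16 ± 0.07, adjusted p 1.11e-05) and did not pass under isoflurane (0.25 ± 0.11, adjusted p 0.0966), and the difference passed (interaction -0.92 ± 0.14, adjusted p 0.0101). Of 6 tested transporters, 4 were lower under isoflurane and 5 under propofol, and none was higher. Abcc2, the canalicular exporter of conjugates, fell by 1.01 (adjusted p 0.00657) and 1.40 (adjusted p 6.01e-05).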

How the data were processed

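RNA of whole liver was pooled from 3 rats for each of 16 libraries, made from polyadenylated RNA with a strand-preserving kit. The authors deposited raw counts, whole numbers of reads per gene symbol, with no normalization. The submitters' processing notes name STAR and the rat build rn5. No counting program or annotation is given in those notes or the study's methods. Reads outside genes (21.6% to 25.4%) and ambiguous reads (1.07% to 1.35%) were entered in 2 rows that name no gene and were left out. Differences were tested with edgeR 4.0.16 (quasi-likelihood, R 4.3.3), after TMM scaling and filterByExpr (minimum count 10, minimum total 15), in fits of 4 libraries against 4, and the interaction in a fit of all 16. P-values were adjusted over all genes tested (Benjamini and Hochberg), and those below 0.05 were called. Standard errors are the log2 fold change over the square root of F. The test was tested on simulated data. DESeq2 1.42.0, limma 3.58.1 (voom), other scalings and filters, and leaving out each library were tried as alternatives. Libraries of a group differed by more than sampling noise, with a chi-square per degree of freedom of 3.35 or more. Nothing says that pools of a group were prepared on separate occasions, so p-values measure the spread between these pools.

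The members and the gene lists were chosen with earlier results of these data known. Values are given by rule for the 3 members of each family with the most reads, the 3 with the smallest p in each anesthetic, and the called members (up to 5) of the interaction and the control liver comparison. Of each gene list, at most 3 called genes by p are named by rule. Other members and other genes of the lists were named after their values were seen. Of the 56 symbols, 55 are current RefSeq symbols. Ugt2b17 is an older symbol of Ugt2b1 and Ugt2b15, and 9 others are also older symbols of another gene (Gsta2, Gsta3, Gsta5, Gstm3, Gstm4, Ugt1a6, Ugt1a8, Ugt1a9 and Ugt2b15). Near-identical copies in these families can share reads, so the identity of single members is uncertain.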

Additional observations from a re-analysis of the deposited data

Results flagged for a closer look

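The 24 members chosen by rule were searched in 4 groups each, and the other members given values were not. Of these 96 groups of 4 libraries, 7 held a library whose gap to the nearest of the others was large against the range of the group, where chance gives about 1 in 20. Gstm4 read 26.71 CPM in library 7 of isoflurane control, and the other 3 read 29.81 to 30.43. Gstt2 read 23.31 CPM in library 6 of the same group, against 27.2 to 27.41. Sult1a1 read 409.9 CPM in library 7, against 332.9 to 343.5, and Ugt2a3 74.04 CPM in library 7, against 60.59 to 62.53. In Isoflurane-Sepsis, Sult2a1 read 9.794 CPM in library 2, against 21.93 to 23.65, and Ugt2b15 read 370.3 CPM in library 4, against 510.2 to 526.6. In propofol control, Ugt2b read 780.6 CPM in library 14, against 1281 to 1341.

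The interaction test of edgeR called 3 of 41 members, where 1.06% of all genes were called lower and 1.66% higher. The log2 difference, isoflurane response minus propofol response, was -1.40 for Sult2a6, 0.39 for Gsto1 and 0.70 for Gstm4. With 1 library left out, the call of Sult2a6 was lost in 10 of 16 fits and that of Gsto1 in 9 of 16. The call of Gstm4 held in all of them.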

How the results depend on the processing

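No paired analysis was possible because the groups compared share no sample number. Counts of members called lower ranged from 23 to 31 under isoflurane and 25 to 30 under propofol with 1 library left out, the lowest under isoflurane when a control library was removed, and counts called higher stayed at 2 and 1. The median under isoflurane lay between -0.73 and -0.53, and under propofol between -0.77 (without library 9) and -0.54. For the interaction, DESeq2 called 3 lower and 4 higher, no filter on low counts called 1 higher, leaving out 1 library gave 0 to 2 lower and 1 to 5 higher with a median between -0.17 and 0.03 (without library 4), and leaving out libraries 4 and 10 together, chosen after seeing the data, gave 2 lower, 4 higher and a median of 0.03. In control liver the median was -0.075 with library totals and 0.064 to 0.11 with 1 library left out, where 9 to 11 were lower and 15 to 17 higher. One fit of all 16 libraries gave 9 lower and 11 higher there. Over the alternatives run for 42 results of single members chosen by rule, none reversed direction, 608 values stayed on the same side of the threshold, 37 no longer passed and 9 newly passed. Other named members were recomputed for their calls alone. Genes of the lists and markers were not recomputed, so their calls, also those of the interaction, were not checked with a library left out. The lowest counts behind a tested member limit Sult2b1, Ugt2b7, Sult1c2 and Gstm6, with 122, 249, 281 and 316 reads over all libraries. Gsto2, Gsta2 and Ugt2a1 follow, with 388, 514 and 597 reads.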
